A study of Mus musculus with 30 samples.

Results

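In mouse embryonic stem cells, 1573 of 5720 EPOP regions (27.5%) carried a Jarid2 peak and no Elongin B region. EPOP regions were merged peaks of the 2 control EPOP lists that held a peak of both, Elongin B (EloB) regions were built in the same way from the 2 control EloB lists, and a region counted as overlapping when at least 1 bp was shared. The 1573 regions, called Jarid2+ EloB- regions here, were thus selected on 5 control peak lists, of EPOP, EloB and Jarid2, so their EPOP, EloB and Jarid2 values without knock-down are a description and support nothing. Of the other EPOP regions, 761 overlapped an EloB region (EloB+ regions, 751 of them with a control Jarid2 peak). A further 1053 had no EloB region and a Jarid2 peak only upon EPOP knock-down, and 2333 had neither an EloB region nor a Jarid2 peak in either list.

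The study examined how EPOP, also named C17orf96, relates to Elongin and to Polycomb in pluripotent cells. All cells were E14Tg2A mouse embryonic stem cells, a widely used feeder-free line, grown on gelatin in 20% serum with LIF. EPOP knock-down cells carried a lentiviral short hairpin RNA and were selected with puromycin. EloB knock-down cells were transfected with short interfering RNA on 2 days and harvested 48 h after the first transfection. Control lists are labelled as controls without naming a method. Cells were fixed in 1% formaldehyde for chromatin immunoprecipitation (ChIP). EloB ChIPs had an additional protein crosslink.

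Polycomb repressive complex 2 (PRC2) places methyl groups on lysine 27 of histone H3. Suz12 is a core subunit of the complex, Jarid2 is an accessory subunit that helps to bring PRC2 to chromatin and stimulates it, and EPOP is an accessory subunit found in a different form of PRC2 than Jarid2. EPOP also binds Elongin B and Elongin C, which pair with Elongin A in a factor for transcription elongation. In embryonic stem cells many CpG-rich promoters of developmental genes carry H3K27me3, the mark of PRC2, together with H3K4me3, a mark of promoters, and are called bivalent.

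The data were 20 peak lists for 6 targets, with 1 or 2 lists for each target and condition. EPOP and EloB each had 2 lists upon EPOP knock-down and 2 control lists. Suz12 and H3K4me3 had 1 list upon EPOP knock-down, 1 upon EloB knock-down and 2 control lists, and Jarid2 and H3K27me3 had 1 list upon EPOP knock-down and 1 control list. The lists held 108 to 47296 peaks, each with a score of at least 50.0 set by the authors, and read depth is unknown. The 2 EPOP replicates used different lots of a home-made antibody, and the 2 EloB replicates used antibodies from different suppliers. One list is labelled inconsistently: the sample titled EPOP ChIP upon EPOP knock-down, replicate 1, has a description that names IgG, while its title, its antibody entry and its file header name EPOP, so results that rest on it are given with and without it. By the file headers, Suz12 control replicate 1 and H3K4me3 control replicate 2 were controls for short interfering RNA, whereas Suz12 control replicate 2 and H3K4me3 control replicate 1 were controls for short hairpin RNA. Comparisons of widths below are therefore given against each control list. Because the labels do not say that replicates came from separate cultures, the spread between lists may be technical.

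Jarid2+ EloB- regions were intermediate in size and in EPOP signal. Their median width was 2556 bp (10th to 90th percentile 1693 to 4382 bp), against 3897 bp for EloB+ regions, 2105 bp for regions with Jarid2 only upon knock-down and 1768 bp for regions without Jarid2. The narrowest spanned 477 bp and the widest 16195 bp. On the score of EPOP control replicate 1, their median rank was the 70.6th percentile of all EPOP regions, and on replicate 2 the 71.3rd percentile. EloB+ regions ranked at the 92.1st and 92.7th percentile.

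The share of Jarid2+ EloB- regions was largest just below the strongest EPOP signal. When all EPOP regions were put in 10 equal bins by EPOP control replicate 1 score, these regions made up 2.62% of the weakest bin, 20.1% of the 5th, 64.0% of the 8th and 19.6% of the strongest. In the strongest bin 80.2% of regions were EloB+, against 11.5% in the 8th. By quartile of the same score, 46, 217, 672 and 638 Jarid2+ EloB- regions fell in the 1st to the 4th.

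At the edges of the selection the calls rested on few base pairs or on scores at the floor of the lists. The 3 members with the lowest Jarid2 score, all on chromosome 8, had scores of 50.0, the lowest that the list holds. The 3 with the smallest overlap shared 8, 18 and 42 bp with a Jarid2 peak. Just outside, the nearest Jarid2 peak lay 60, 63 and 66 bp from the EPOP region, and 66 EPOP regions without EloB lay within 1000 bp of a Jarid2 peak that they did not overlap. The 3 regions with Jarid2 that overlapped an EloB region least shared 672, 675 and 708 bp with it.

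Individual regions show what these lists look like on the chromosome. All coordinates are on mm9, counted from 1. The Jarid2+ EloB- region with the highest EPOP score lay on chromosome 10, 84216875 to 84224000, and had no EloB peak and no EPOP peak upon knock-down. Its EPOP peaks spanned 7126 and 6878 bp in the control lists, with scores of 2659 and 2523, and its Jarid2 peak spanned 5651 bp upon EPOP knock-down and 4804 bp in control. Suz12 covered 6973 bp upon EPOP knock-down, 8053 bp upon EloB knock-down, and 8007 and 6664 bp in control replicates 1 and 2. H3K27me3 covered 10496 bp upon EPOP knock-down and 7390 bp in control, so in control the mark was wider than the peaks of EPOP, Jarid2 and Suz12 replicate 2.

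The region with the largest Jarid2 width ratio lay on chromosome 5, 106880321 to 106881637. There the Jarid2 peak spanned 9680 bp upon EPOP knock-down and 1101 bp in control, a log2 ratio of 3.14, and the Suz12 peak spanned 10188 bp upon EPOP knock-down and 15152 and 10105 bp in control. The wide Jarid2 peak of the knock-down was thus no wider than the Suz12 peaks called there in the control lists. It ran from -585 to 9095 bp from the region's centre. Control Jarid2 peaks outside the region, at 796 to 2596 bp and 4523 to 9047 bp, lay under it. The ratio thus sets a peak that spans several control peaks against the one control peak on the region. The smallest ratio, -1.88, belonged to chromosome 11, 85698232 to 85700640, where Jarid2 spanned 1375 bp upon knock-down and 5074 bp in control. The strongest EPOP region without control H3K27me3 lay on chromosome 17, 48110105 to 48112785, and had no H3K27me3 peak upon knock-down either, although Suz12 covered 2502 bp upon EPOP knock-down, 3705 bp upon EloB knock-down, and 3319 and 2490 bp in control.

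**Figure D1:**
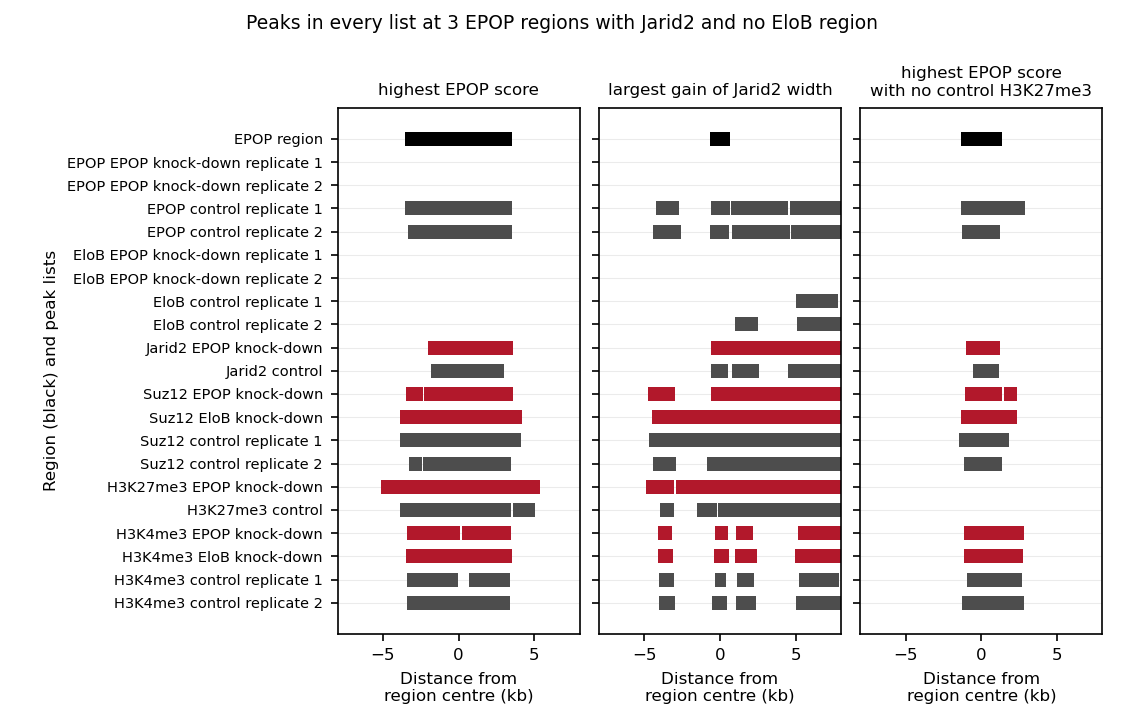
Peaks of every list in 8000 bp on either side of the centre of 3 Jarid2+ EloB- regions, with distance from the centre in kb across and lists down the page; red bars are knock-down lists, dark grey bars control lists and the black bar the EPOP region. The panels show the highest EPOP score, the largest Jarid2 width ratio (9680 bp upon EPOP knock-down against 1101 bp in control) and the strongest EPOP region without H3K27me3 in either list. In the middle panel the knock-down Jarid2 peak also spans control Jarid2 peaks outside the region.

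Absence of an EloB region did not mean absence of every EloB peak. Of the 1573 regions, 1057 (67.2%) had no EloB peak in either control list, 127 (8.07%) had one in replicate 1 only, 377 (24.0%) in replicate 2 only, and 12 (0.763%) had peaks in both lists that did not overlap each other. The single-list peaks were weak: their median score was 71.0 where only replicate 1 had one and 76.0 where only replicate 2 had one, near the floor of 50.0. Regions with such a peak also had more EPOP, with a median replicate 1 score of 770 and 814, against 446 in those with no EloB peak. Upon EPOP knock-down none of the 1573 had an EloB peak in either list (Wilson 95% upper limit 0.244%). Of all 5720 EPOP regions, 2 had one in replicate 1 (0.0350%) and 3 in replicate 2 (0.0524%), all of them EloB+ regions, so nothing is read from this count. The share with EloB in a single control list followed Jarid2 signal as well, being 12.7%, 18.8%, 32.8% and 66.9% from the lowest to the highest quartile of control Jarid2 score. These control EPOP, Jarid2 and EloB values come from the lists that the selection used. Regions with overlapping EloB peaks in both control lists had been left out, so no relation is read from them.

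Most Jarid2+ EloB- regions lay far from EloB on the chromosome. Their median distance to the nearest EloB region was 751 kb, against 780 kb for regions with Jarid2 only upon knock-down and 531 kb for regions without Jarid2. Within 5 kb of an EloB region lay 86 of them (5.47%), against 2.85% and 2.36% of those classes, and the closest was 73 bp away. On shared Suz12 regions, 91 of 1571 (5.79%) sat together with an EloB+ region. The distance to the next Jarid2+ EloB- region had a median of 350 kb, and 262 (16.7%) had one within 10 kb.

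Nearly every Jarid2+ EloB- region carried Suz12, and most carried both histone marks, none of which the selection used. Suz12 regions, present in both control lists, overlapped 1571 of 1573 (99.9%, Wilson 95% interval 99.5 to 100), against 100% of EloB+ regions, 99.7% of regions with Jarid2 only upon knock-down, 75.1% of regions without Jarid2 and 89.8% of all EPOP regions. Control H3K27me3 was found at 1518 (96.5%, 95.5 to 97.3), against 99.7% of EloB+ regions, 89.8% of regions with Jarid2 only upon knock-down, 68.8% of regions without Jarid2 and 84.4% of all. H3K4me3 was present in both control lists at 1526 (97.0%), near the 95.9% of all EPOP regions. Suz12 occurred with both marks at 1472 (93.6%, 92.3 to 94.7), against 99.1% of EloB+ regions, 87.0% of regions with Jarid2 only upon knock-down, 54.5% of regions without Jarid2 and 77.2% of all. For Suz12 the gap was to regions without Jarid2, and these differences between classes were not tested. The classes also differed in EPOP signal. Quartile 1 of EPOP control replicate 1 score held 2.92% of Jarid2+ EloB- regions and 52.6% of regions without Jarid2. There, Suz12 control replicate 1 had peaks at 100% of the former and 74.5% of the latter. In quartile 3 it had peaks at 100% of both, and replicate 2 at 99.9% and 98.5%. Control H3K27me3 was present at 80.4% and 58.4% in quartile 1. In quartile 3 its shares were closer, but still lower without Jarid2. The intervals above treat regions as independent and cover counting error within a list only.

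The exceptions were few. Neither of the 2 regions without a Suz12 region lacked Suz12 altogether: chromosome 15, 61815489 to 61820042, had Suz12 peaks of 2060 bp upon EPOP knock-down, 1946 bp upon EloB knock-down and 3017 bp in control replicate 1, and none in control replicate 2. The other, on chromosome 1, 188791005 to 188792339, had Suz12 peaks of 1500 bp upon EPOP knock-down, 2263 bp upon EloB knock-down and 1213 bp in control replicate 1. A further 10 regions had no H3K4me3 peak in any of the 4 lists, and 12 had no H3K27me3 in either list. At most members, then, Suz12 and both marks were called in every list examined, and 891 regions (56.6%) had a peak in 14 of the 20 lists. That number is reached when EloB and EPOP knock-down peaks are absent and all others present, but also in other ways. The X chromosome region 102958128 to 102961268 had 14 with an EloB peak in control replicate 2 and no control H3K27me3.

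**Figure D2:**
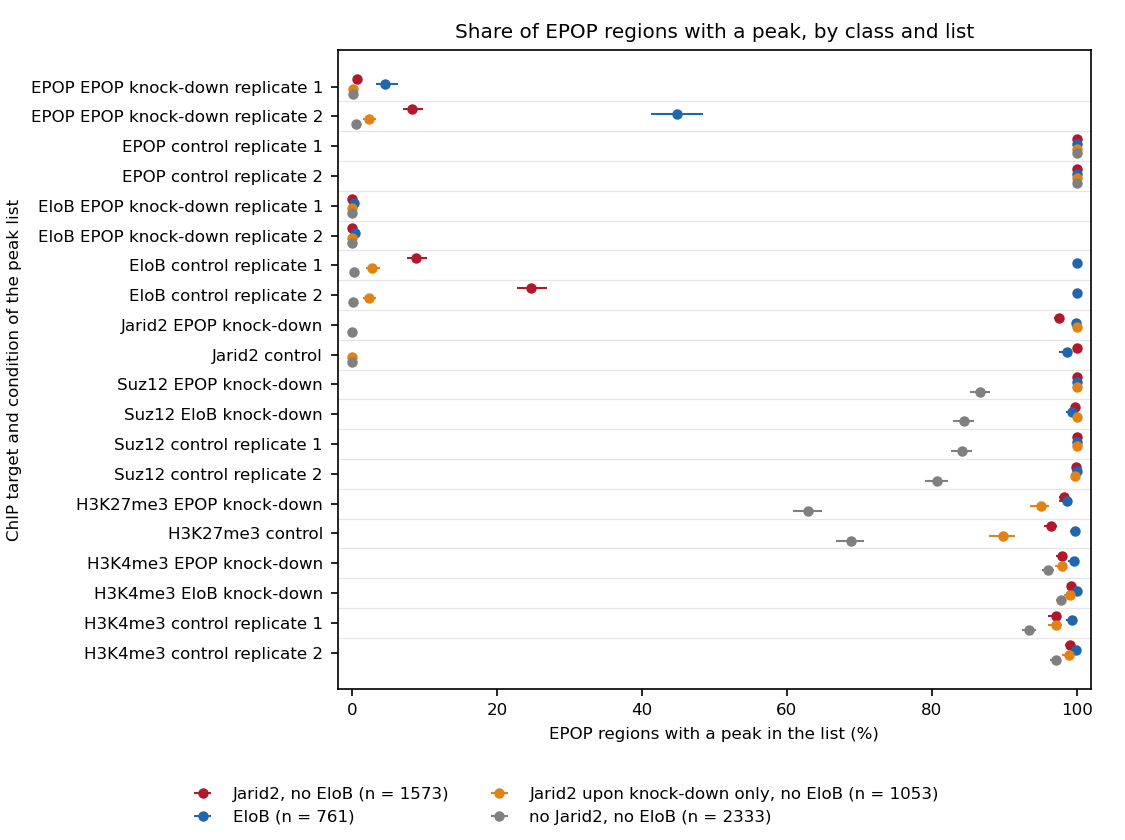
Share of EPOP regions with a peak in each list, in percent with Wilson 95% intervals, by class of EPOP region, with Jarid2+ EloB- regions first and knock-down lists before control lists. Jarid2+ EloB- regions lie near 100% for Suz12 and H3K4me3 in all lists, at 98.3% for H3K27me3 upon EPOP knock-down and 96.5% in control, and at 8.26% or less for EPOP upon EPOP knock-down.

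Of the 55 members with no control H3K27me3 peak, 17 lay on the X chromosome, a split made after the values were seen. The X held 44 Jarid2+ EloB- regions out of 95 EPOP regions (46.3%), against 1529 of 5625 (27.2%) on autosomes, and only 1 EloB+ region. On the X, H3K27me3 was present at 42 of 44 (95.5%) upon EPOP knock-down and at 27 of 44 (61.4%, 46.6 to 74.3) in control, while on autosomes it was present at 98.4% upon knock-down and 97.5% in control. Suz12 and H3K4me3 peaks were present at all 44 X regions in each of their 4 lists. Where H3K27me3 was called on the X, its median width was 1916 bp upon knock-down and 910 bp in control, against 3501 and 2899 bp on autosomes. The whole H3K27me3 lists differed in the same way, with 2.54% of peaks on the X upon knock-down and 1.02% in control, whereas Suz12 lists had 2.58% to 2.87%. Each condition had 1 H3K27me3 list, so EPOP knock-down and the difference between these 2 libraries cannot be told apart.

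Suz12 domains at Jarid2+ EloB- regions were narrower than at EloB+ regions and wider than at the 3386 EPOP regions without control Jarid2 and EloB, in every Suz12 list. Against EloB+ regions, the median summed width of Suz12 peaks was 2549 against 3950 bp upon EPOP knock-down, 3349 against 5044 bp upon EloB knock-down, and 3228 against 5040 bp and 2312 against 3559 bp in the control lists. The difference averaged -1539 ± 260 bp (SD, n = 4 lists; two-sided exact sign-flip permutation test over lists, p = 0.125, the smallest that 4 lists allow). Against the regions without control Jarid2 and EloB, whose medians were 1534, 1983, 1909 and 1396 bp in the same order of lists, it averaged +1154 ± 222 bp (SD, n = 4; exact sign-flip test, p = 0.125, again the smallest possible). With 4 lists this test cannot pass 0.05, so the result is the direction, which was the same in 4 of 4 lists.

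The differences were smaller within quartiles of EPOP score, which match EPOP signal only in part. Compared within quartiles of EPOP control replicate 1 score, the Suz12 difference was -614 ± 118 bp from EloB+ regions and +530 ± 158 bp from regions without control Jarid2 and EloB (SD, n = 4 lists), with the direction kept in 4 of 4 lists each time. H3K27me3, with 1 list per condition and no test, showed the same order: medians were 3452 bp upon knock-down and 2868 bp in control at Jarid2+ EloB- regions, 5464 and 4577 bp at EloB+ regions, and 2067 and 1872 bp at regions without control Jarid2 and EloB. Within quartiles its differences averaged -804 bp from EloB+ regions and +465 bp from the others. All within-quartile comparisons with EloB+ regions rest on quartiles 3 and 4, since quartiles 1 and 2 held 0 and 2 of them. EPOP signal still differed there: in quartile 4 the median replicate 1 score was 852 at Jarid2+ EloB- and 1367 at EloB+ regions. In quartile 3, where these scores were 460 and 540, the widths were close. Suz12 medians there were 2904 and 3100 bp in control replicate 1 and 2088 and 2149 bp in replicate 2. Control H3K27me3 medians were 2586 and 2742 bp. In quartile 4 Suz12 medians were 3930 and 5220 bp in control replicate 1 and 2782 and 3715 bp in replicate 2.

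H3K4me3 did not follow that order within quartiles of EPOP score. Its median summed width at Jarid2+ EloB- regions was 1966 bp upon EPOP knock-down, 2185 bp upon EloB knock-down, and 1878 and 2112 bp in control. The mean difference from EloB+ regions was -811 ± 67.7 bp (SD, n = 4 lists, exact sign-flip test, p = 0.125). EloB+ regions more often held several H3K4me3 peaks, in control replicate 2 27.1% of them against 8.66% of Jarid2+ EloB- regions. Over all regions the summed width was above that of the regions without control Jarid2 and EloB, by +199 ± 24.3 bp in 4 of 4 lists. That size rested on single lists: the difference was 54.5 bp without EPOP control replicate 2, 111 bp without EloB control replicate 1 and 72.0 bp with regions taken to lack EloB only where neither list had a peak, each time positive in 4 of 4 lists. Within quartiles of EPOP score that difference turned to -168 ± 20.3 bp, with Jarid2+ EloB- regions lower in 4 of 4 lists (exact sign-flip test, p = 0.125). Averaged over these quartiles, Jarid2+ EloB- regions thus had a larger summed Suz12 width than regions without control Jarid2 and EloB, and a smaller summed H3K4me3 width. Averaged over quartiles 3 and 4, both summed widths were smaller than at EloB+ regions. In quartile 3 alone, H3K4me3 medians in control replicate 2 were 1966 bp at Jarid2+ EloB- and 1964 bp at the 46 EloB+ regions.

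**Figure D3:**
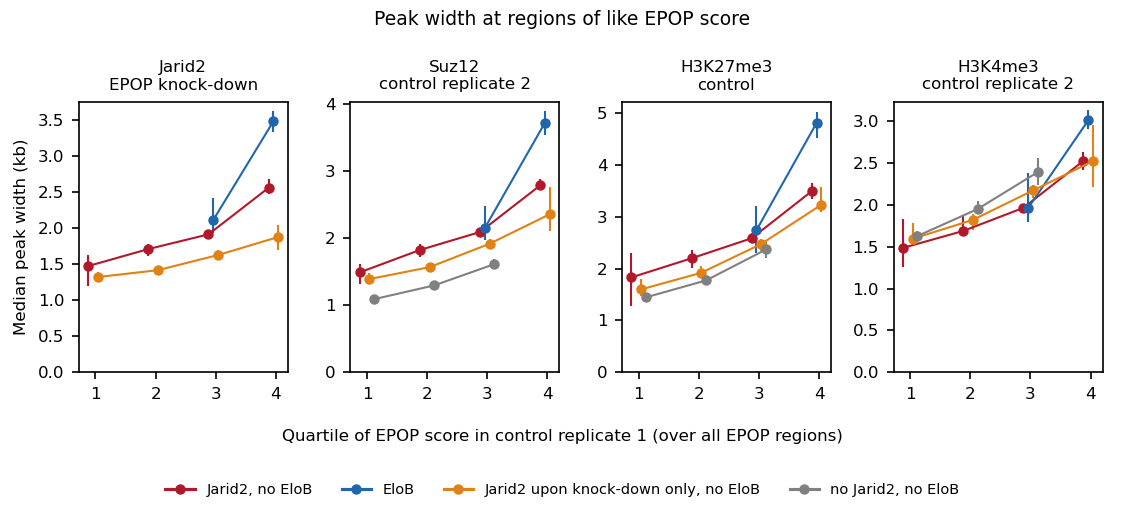
Median summed peak width in kb (points, with order-statistic 95% intervals) by quartile of EPOP control replicate 1 score, from weak to strong, for Jarid2+ EloB- regions and the other classes. Panels are Jarid2 upon EPOP knock-down, Suz12 control replicate 2, H3K27me3 control and H3K4me3 control replicate 2. For Suz12 the Jarid2+ EloB- regions lie below EloB+ regions and above both other classes. In quartile 3 they lie close to EloB+ regions, at 2088 against 2149 bp. Over the 4 Suz12 lists the within-quartile difference was -614 bp from EloB+ regions and +530 bp from the other classes combined.

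Across the 1573 regions, control peak widths of EPOP, Suz12 and Jarid2 went together, and those of the 2 histone marks went together least of the pairs computed. Spearman's rho was 0.84 between the 2 EPOP control lists, 0.79 between EPOP control replicate 2 and Suz12 control replicate 2, and 0.69 between Jarid2 control and Suz12 control replicate 2. It was 0.70 between EPOP control replicate 1 and H3K4me3 control replicate 2, 0.54 between Jarid2 and H3K27me3 control and 0.22 between H3K27me3 and H3K4me3 control replicate 1. These values describe regions that share libraries and domain size, and regions are not replicates.

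Upon EPOP knock-down, EPOP peaks were absent from almost all Jarid2+ EloB- regions. Replicate 2 kept an EPOP peak at 130 of 1573 (8.26%, 7.00 to 9.73), where 8.88% of all EPOP regions did, and replicate 1 at 10 (0.636%), where 0.839% of all did. Leaving out replicate 1, whose description names IgG, moves the mean share to 8.26%, against 4.45% over both lists. EloB+ regions kept a peak in replicate 2 at 44.8%, and within the strongest quartile of EPOP score the shares were 14.9% of Jarid2+ EloB- and 47.1% of EloB+ regions. Control EPOP lists chose these regions, so the shares carry no test.

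The peaks that stayed were small and lay at the stronger sites. Their median width was 837 bp in replicate 2, against 2438 and 2217 bp for the control EPOP peaks of all 1573 regions, and their median score was 65.6. The 130 regions with such a peak had control EPOP scores of 795 and 860 (medians, replicates 1 and 2), against 524 and 499 at the other 1443. Of the 3 regions with an EPOP peak in both knock-down lists, the strongest lay on chromosome 2, 173410580 to 173412783, where EPOP spanned 906 and 646 bp upon knock-down and 2154 and 2063 bp in control.

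Jarid2 stayed at nearly all of these regions upon EPOP knock-down and its peaks were wider. The peak was missing at 37 of 1573 (2.35%), where 1.59% of all EPOP regions with control Jarid2 lacked it, and at none of 751 EloB+ regions. Where it stayed, it was wider than in control at 1353 of 1536 (88.1%), where 89.3% of all such regions were wider, and its score was higher at 1461 (95.1%), where 96.4% of all were. These shares are close to those over all regions, and because the control list selected the regions, nothing is read from them.

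In size, the Jarid2 peak had a median width of 2124 bp upon EPOP knock-down and 1651 bp in control, with a median score of 307 upon knock-down and 124 in control. The median log2 width ratio was 0.30 (order-statistic 95% interval 0.28 to 0.32), against 0.20 (0.18 to 0.23) at EloB+ regions. The ratio was lower at higher control Jarid2 score, being 0.43, 0.37, 0.25 and 0.21 from the lowest to the highest quartile, and 29 of the 37 missing peaks belonged to the lowest quartile. The 37 had started weak, with a median control Jarid2 score of 66.4 and an EPOP score of 265, against 127 and 552 where Jarid2 stayed. Selection on a control peak, a floor on score and a single list per condition can each enter this gradient, and their part in it was not tested.

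The wider Jarid2 peaks reached past the EPOP region. The Jarid2 peak lay wholly inside the region at 873 of 1536 (56.8%) upon knock-down, against 1293 of 1573 (82.2%) in control, and the shares at EloB+ regions were like these, with 57.7% upon knock-down and 85.4% in control. It covered a median of 83.9% of the region upon knock-down and 65.7% in control, against 88.1% upon knock-down and 75.3% in control at EloB+ regions. At 1 kb from the region's centre, 55.6% of members were inside a Jarid2 peak upon knock-down and 36.1% in control, and at 2 kb 11.2% were upon knock-down and 6.45% in control. At the centre itself the shares were 95.7% upon knock-down and 94.0% in control. The selection required a control Jarid2 peak, which left little room for a higher share at the centre, so nothing is read from these 2 values.

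**Figure D4:**
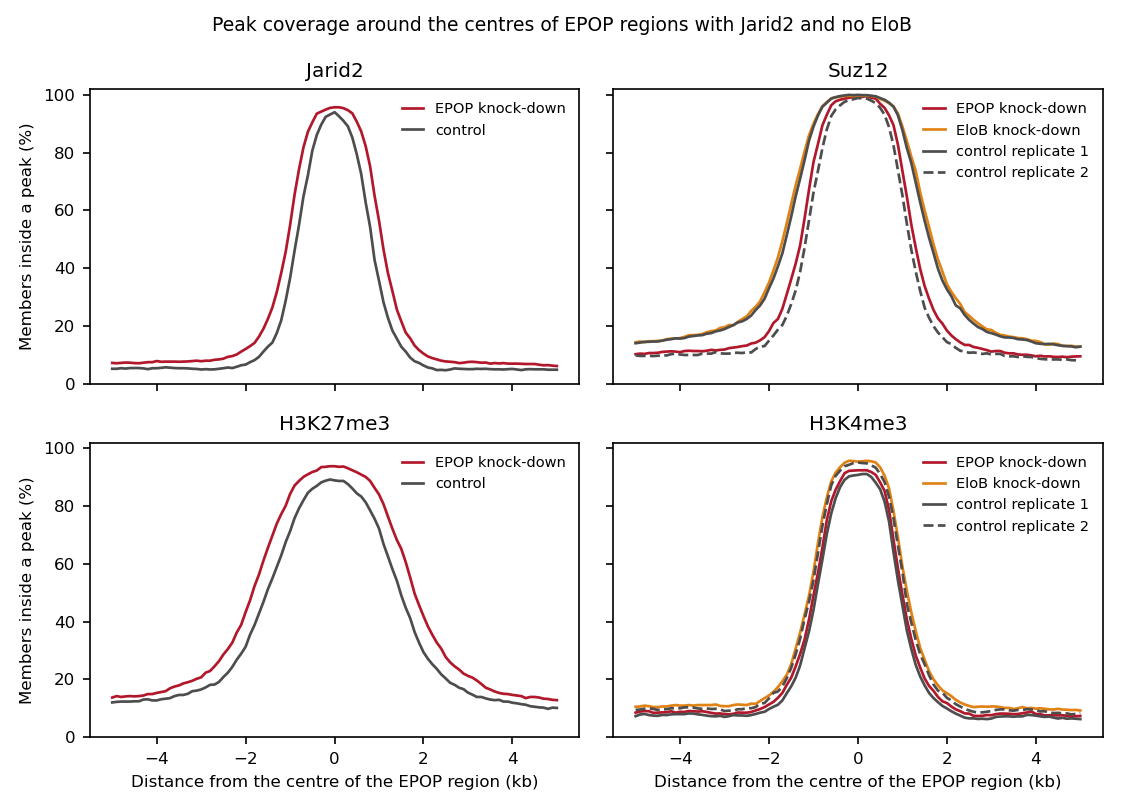
Share of Jarid2+ EloB- regions inside a peak, in percent, by distance from the region's centre in kb, for Jarid2, Suz12, H3K27me3 and H3K4me3; red is EPOP knock-down, orange EloB knock-down, grey control (solid replicate 1, dashed replicate 2). For Jarid2 at 1 kb the shares are 55.6% upon EPOP knock-down and 36.1% in control, while the Suz12 EPOP knock-down line, at 75.2%, lies between the control lists at 88.4% and 65.6%.

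Suz12 stayed at these regions upon either knock-down. Of the 1571 with Suz12 in both control lists, none lacked it upon EPOP knock-down, where 0.958% of all EPOP regions did, and 4 (0.255%) lacked it upon EloB knock-down, where 1.31% of all did. The 4 lay near one another on chromosome 11, 96137711 to 96189432, all under a single Suz12 peak of 87683 bp in control replicate 1. All 4 had Suz12 peaks upon EPOP knock-down and in control replicate 2.

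Suz12 width gave an answer that depended on the control list. Upon EPOP knock-down the median log2 ratio was -0.12 over the mean of both control lists, -0.30 against control replicate 1 and 0.12 against control replicate 2, and the control lists differed from each other by -0.45 (replicate 2 over replicate 1). Upon EloB knock-down it was 0.26 over the mean, 0.03 against replicate 1 and 0.51 against replicate 2. The spread between the control ratios (SD 0.30 and 0.34) was larger than either mean ratio. Against both controls at once, Suz12 was wider upon EPOP knock-down at 131 regions (8.34%; 12.7% of all EPOP regions) and narrower at 353 (22.5%; 22.6% of all). Upon EloB knock-down it was wider at 959 (61.2%; 57.2% of all) and narrower at 29 (1.85%; 4.00% of all).

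Set against the control that the file header ties to the same knock-down method, both Suz12 ratios were small and positive. For EPOP knock-down, a hairpin experiment, this is control replicate 2 and the ratio was 0.12, with Suz12 wider at 1208 of 1571 regions (76.9%; 75.2% of all EPOP regions). For EloB knock-down it is control replicate 1 and the ratio was 0.03, with Suz12 wider at 971 of 1569 (61.9%; 58.6% of all). The negative ratio upon EPOP knock-down and the larger positive one upon EloB knock-down, over the mean of the controls, were thus not seen with the control of the same method. Scores split by method as well: the share of members whose Suz12 score reached 3100 or more, where scores pile up, was 17.5% upon EPOP knock-down, 74.6% upon EloB knock-down, and 63.8% and 4.58% in control replicates 1 and 2.

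H3K27me3 was broader at Jarid2+ EloB- regions upon EPOP knock-down than in control. It was missing upon knock-down at 15 of 1518 (0.988%), where 8.37% of all EPOP regions with the mark lacked it, and it was present at 43 of the 55 without it in control (78.2%), where 38.4% of all such EPOP regions had it. Of such regions with Jarid2 only upon knock-down, 76.6% had the mark, as did 29.8% of those without Jarid2 and 1 of 2 EloB+ regions. The mark was wider at 1184 of 1503 (78.8%), where 70.0% of all were. It was wider at 85.3% of EloB+ regions, 66.8% of regions with Jarid2 only upon knock-down and 52.6% of regions without Jarid2. The share missing was 1.19% at EloB+ regions, 2.85% at regions with Jarid2 only upon knock-down and 22.0% at regions without Jarid2. With 1 list per condition none of these differences between classes was tested.

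Median H3K27me3 width at the 1573 regions was 3452 bp upon knock-down and 2868 bp in control, and the median score was 546 upon knock-down and 296 in control. The median log2 width ratio was 0.28 (0.26 to 0.31), against 0.24 at EloB+ regions, 0.18 at regions with Jarid2 only upon knock-down and 0.04 at regions without Jarid2. At the centre 93.8% of regions were inside an H3K27me3 peak upon knock-down and 88.9% in control, and at 2 kb 42.6% were upon knock-down and 30.4% in control. Jarid2 and H3K27me3 width ratios hardly went together across regions (Spearman's rho 0.06). The header of the H3K27me3 knock-down list carries another tag than those of the Suz12, H3K4me3 and Jarid2 knock-down lists, and its part in the result was not tested. Neither H3K27me3 header names a knock-down method, so it is not known whether the control matches the knock-down list in method. Over the whole lists, median H3K27me3 peak width was 1634 bp upon knock-down and 1438 bp in control.

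Over the 15 regions where H3K27me3 was missing upon knock-down, 8 lay in very wide domains. On chromosome 11, 3 of them fell within 96137711 to 96182871, and their control H3K27me3 peaks spanned 10425 to 19568 bp. On chromosome 15, 5 fell within 102782745 to 102836893, with control peaks of 5794 to 18527 bp. The other 7, on several chromosomes, had narrow control peaks of 638 to 1573 bp, with scores of 57.4 to 91.2, near the floor of 50.0. Suz12 was called upon EPOP knock-down at all 15, so the missing H3K27me3 call was not accompanied by a missing Suz12 call there. Upon EloB knock-down the 3 on chromosome 11 had no Suz12 peak. A missing call in such wide domains need not be a missing mark, which was not tested.

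H3K4me3 differed little in presence or width between the lists. It was missing upon EPOP knock-down at 5 of 1526 (0.328%; 0.182% of all EPOP regions with the mark) and upon EloB knock-down at 1 (0.0655%; 0.0547% of all). Upon EPOP knock-down the median log2 width ratio was -0.01 over the mean of both control lists, 0.06 against replicate 1 and -0.09 against replicate 2, and upon EloB knock-down it was 0.11, 0.18 and 0.04. The control lists differed from each other by 0.15 (replicate 2 over replicate 1), which is larger than either mean ratio.

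Counted against both controls, H3K4me3 was wider upon EPOP knock-down at 300 regions (19.7%; 23.3% of all EPOP regions) and narrower at 427 (28.1%; 23.7% of all). Upon EloB knock-down it was wider at 932 (61.1%; 62.3% of all) and narrower at 83 (5.44%; 5.27% of all). Taken against the control of the same method, H3K4me3 had a ratio of 0.06 upon EPOP knock-down, wider at 1062 of 1521 (69.8%; 74.2% of all), and 0.04 upon EloB knock-down, wider at 977 of 1556 (62.8%; 63.8% of all). Each share at Jarid2+ EloB- regions was near that of all EPOP regions.

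**Figure D5:**
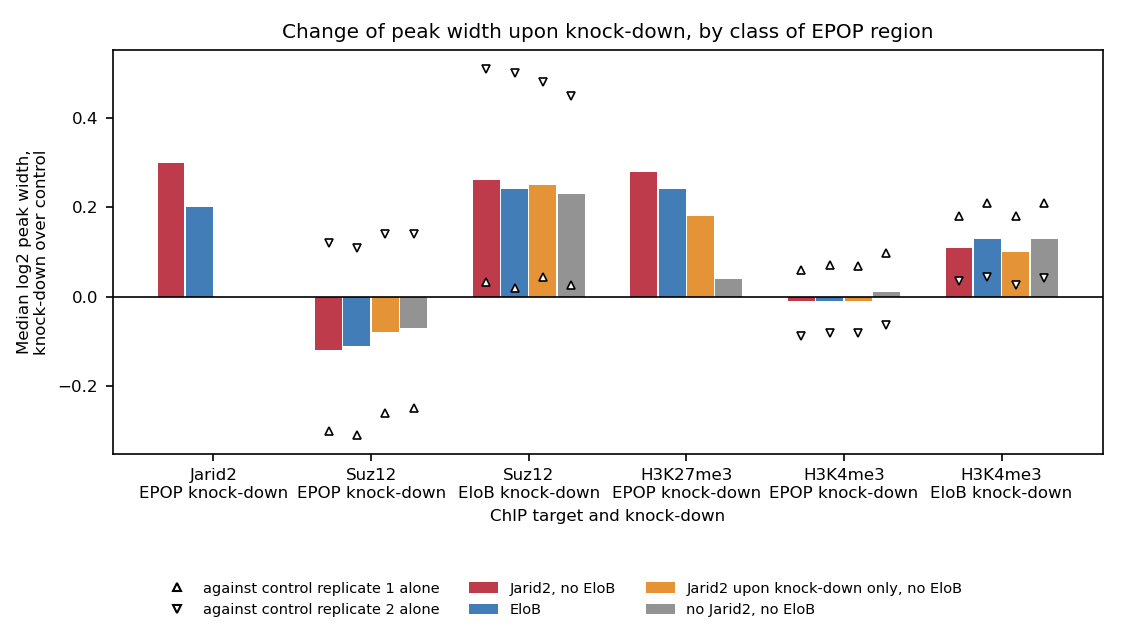
Median log2 peak width upon knock-down over control for Jarid2+ EloB- regions and the other classes (bars, over the mean of the control lists); triangles pointing up and down are ratios against control replicate 1 and replicate 2 alone. Jarid2 and H3K27me3 bars lie at 0.30 and 0.28 for Jarid2+ EloB- regions, while the triangles of Suz12 upon EPOP knock-down lie on both sides of 0, at -0.30 and 0.12.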

How the data were processed

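ChIP peaks were analysed in 20 lists. Each peak's score was given by the authors in the deposited lists, and its definition and the peak caller are not given in the sources used here. Scores only ranked or filtered peaks. Peak coordinates are on mm9, and, per the submitters' processing notes, Bowtie, TopHat and Cufflinks were among the tools, with no role or version given. Not analysed here were 9 RNA samples and 1 IgG sample.

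Overlaps, shares with Wilson 95% intervals, summed widths of the peaks that overlap a region, log2 width ratios and exact sign-flip permutation tests over lists were computed with Python 3.11.15, NumPy 2.4.6, SciPy 1.17.1, pandas 2.3.3 and Matplotlib 3.10.9, and the code was checked on simulated data. Summed width counts a peak whole, also where it spans several regions. Interval limits cover counting error only. The members, classes and lists were chosen with earlier results of these data known. Named regions were the extremes by EPOP score, width, Jarid2 width ratio or missing peaks. The choice of the control of the same method, the X chromosome split and the wide domains were added after the values were seen. Alternatives were a stricter score, a larger overlap, no EloB peak in either list, leaving out each list, autosomes alone, clipped widths, EPOP quartiles and pairing by replicate number. Genes at the regions are not named and no sequence is shown, since no mm9 annotation or genome was used here.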

Additional observations from a re-analysis of the deposited data

How the results depend on the processing

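Of 139 recomputed values, 5 changed direction and 10 others moved past the spread or, for the number of regions, past 1.5 times. Differences between classes were judged by direction and threshold alone, and their sizes moved more. When peaks below their target's median control score were dropped, the number of regions was 836 against 1573, the share on a Suz12 region 100%, the share with H3K27me3 94.7%, the Jarid2 width ratio 0.23 and the H3K27me3 width ratio 0.34. With no EloB peak in either control list, there were 1057 regions and 95.5% had H3K27me3. On autosomes alone 97.5% had it. With widths clipped to 1000 bp around the region, the H3K27me3 ratio was 0.21. Directions turned for the Suz12 ratio upon EPOP knock-down with the control list of the same method (0.12, chosen after seeing the data), for the H3K4me3 ratio upon EPOP knock-down with that list (0.06), and for H3K4me3 width against regions without control Jarid2 and EloB within EPOP quartiles (-168 bp). The control list's method was named by the file headers. Within a target the 2 control lists differ in method and in library, which cannot be told apart. The cause of these changes was not tested.

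Leaving out 1 list at a time gave 1184 to 1673 regions, 99.2% to 100% on a Suz12 region and 95.6% to 96.3% with H3K27me3. It gave 0.636% to 8.26% with an EPOP peak upon EPOP knock-down, against 4.45% as the mean of both lists. Width ratios ranged over 0.30 to 0.32 for Jarid2 and 0.28 to 0.30 for H3K27me3 upon EPOP knock-down. They ranged over -0.30 to 0.12 for Suz12 and -0.09 to 0.06 for H3K4me3 upon EPOP knock-down, and over 0.03 to 0.51 and 0.04 to 0.18 upon EloB knock-down. Mean differences from EloB+ regions ranged over -1528 to -1268 bp for Suz12 and -736 to -717 bp for H3K4me3. From regions without control Jarid2 and EloB they ranged over 981 to 1350 bp and 54.5 to 201 bp. With no EloB peak in either list the last was 72.0 bp. Within EPOP quartiles the differences for Suz12 were -614 and 530 bp, against -1539 and 1154 bp, and for H3K4me3 from EloB+ regions -286 bp, against -811 bp.

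Same-numbered EPOP lists shared an antibody lot. Paired in that way (replicate block), the share with an EPOP peak upon knock-down was 4.43%, from 10 of 1673 control peaks in replicate 1 and 137 of 1660 in replicate 2. Read depth is unknown and a missing peak is a missing call. Jarid2 and H3K27me3 have 1 list per condition, so their ratios have no replicate check.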

Other observations

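The X chromosome values were not particular to Jarid2+ EloB- regions. On the X, H3K27me3 was present at 85.7% of the 28 regions with Jarid2 only upon EPOP knock-down in the knock-down list and at 21.4% in control, and at 54.5% of the 22 regions without Jarid2 upon knock-down and 22.7% in control. Among Jarid2+ EloB- regions, the median log2 H3K27me3 width ratio was 1.06 (0.53 to 1.64, 27 regions) on the X and 0.28 on autosomes, and the Jarid2 ratio was 0.40 (0.22 to 0.72) and 0.30. Of the 17 Jarid2+ EloB- regions on the X without control H3K27me3, 15 had a peak upon knock-down, as did 28 of 38 on autosomes.

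Jarid2+ EloB- regions were unevenly spread over chromosomes, from 94 of 483 EPOP regions (19.5%) on chromosome 11 to 44 of 95 (46.3%) on the X. The widest Jarid2+ EloB- region lay on chromosome 7, 86640458 to 86656652. It held EloB peaks of 1003 and 842 bp in the 2 control lists that did not overlap each other, and its Jarid2 peaks covered 11330 bp upon EPOP knock-down and 6351 bp in control. H3K27me3 covered 21837 bp there upon knock-down and 16524 bp in control. Under the Suz12 peak of 87683 bp on chromosome 11 lay 10 EPOP regions, of which 4 were Jarid2+ EloB-, 5 EloB+ and 1 without Jarid2. The 4 had no H3K27me3 peak upon EPOP knock-down and 3 had one in control.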
